A study of Mus musculus with 6 samples.

Results

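The genes of 8 checkpoint receptors were followed across 6 RNA-seq libraries of double negative 3 (DN3) thymocytes, namely Pdcd1, Ctla4, Icos, Lag3, Btla, Cd160, Havcr2 and Tigit. They were taken by name from a count table of 26332 genes, and all 8 members had a row. The libraries came from 2 mice with a knockout of Tcf7 (KO), which encodes the transcription factor TCF-1, and from 4 wild-type (WT) mice, all C57BL/6 and each mouse giving 1 library. KO 1 and WT 4 were male, and KO 2 and WT 1, 2 and 3 were female. The cells were sorted from thymus as CD25-positive cells without surface CD44, CD3, TCRβ, CD8, NK1.1 or CD1d-tetramer binding. The labels state neither the age of the mice nor the part of Tcf7 that was removed.

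Checkpoint receptors are surface proteins that raise or lower the response of a T cell to antigen. PD-1 (gene Pdcd1), CTLA-4, LAG-3, BTLA, TIM-3 (gene Havcr2) and TIGIT mainly restrain it, ICOS is a costimulatory relative of CD28, and CD160 shares a ligand with BTLA. They are best known from activated, regulatory and exhausted T cells of the periphery. In the thymus, DN3 cells are still rearranging the T-cell receptor β locus and signal through the pre-T-cell receptor.

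The regulatory sequences that could be shown are the promoters of the receptors, since every value below is a transcript level. The RefSeq table of promoter windows (build GRCm38.p6, the mm10 assembly) held 7 windows for 6 of the 8 members, each from 250 bases before to 50 bases after a gene start. Shown here are the 250 bases before a RefSeq start for Cd160, Tigit, Btla and Pdcd1, which were called higher in KO in at least 14 of 15 alternative settings, and 30 bases of Ctla4, the receptor that fell. The stretches of Cd160, Tigit and Btla lie before starts inside the annotated span of the gene, and that of Pdcd1 lies outside it. They are written 5′ to 3′ on the strand of the gene, and capitals mark, on either strand, the letters CTTTGAA, the letters CTTTGAT, the form CTTTGTA and the form CTTTGTT, which are forms of the site that TCF-1 and LEF-1 are known to bind.
Cd160 (chr3:96814522-96814771, minus strand, inner start): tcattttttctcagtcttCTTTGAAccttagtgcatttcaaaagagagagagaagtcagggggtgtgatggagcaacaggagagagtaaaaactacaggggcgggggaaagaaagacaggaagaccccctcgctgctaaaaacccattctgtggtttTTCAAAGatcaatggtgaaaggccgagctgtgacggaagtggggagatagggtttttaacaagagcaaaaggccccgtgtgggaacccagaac
Tigit (chr16:43664185-43664434, minus strand, inner start): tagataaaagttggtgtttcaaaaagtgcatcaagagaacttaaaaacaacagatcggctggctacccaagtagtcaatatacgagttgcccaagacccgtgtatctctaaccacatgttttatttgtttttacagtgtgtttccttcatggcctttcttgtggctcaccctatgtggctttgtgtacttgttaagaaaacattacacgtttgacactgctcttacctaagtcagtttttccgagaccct
Btla (chr16:45224087-45224336, plus strand, inner start): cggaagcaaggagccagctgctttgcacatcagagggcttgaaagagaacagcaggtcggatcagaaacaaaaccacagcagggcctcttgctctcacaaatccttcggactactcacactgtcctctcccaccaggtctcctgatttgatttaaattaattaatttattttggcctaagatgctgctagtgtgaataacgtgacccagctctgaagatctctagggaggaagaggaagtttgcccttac
Pdcd1 (chr1:94052554-94052803, minus strand): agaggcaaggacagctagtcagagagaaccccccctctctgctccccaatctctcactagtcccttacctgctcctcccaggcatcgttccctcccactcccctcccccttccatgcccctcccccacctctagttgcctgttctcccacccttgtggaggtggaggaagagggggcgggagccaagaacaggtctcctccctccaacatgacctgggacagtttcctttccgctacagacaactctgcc
Ctla4, around the match (chr1:60909040-60909069, plus strand): acgtaccttggATCAAAGctgtctatataa

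The inner Cd160 start had 2 matches, beginning 232 and 93 bases before it, and the outer Cd160 start had none. In Ctla4 the 1 match began at base 27 after the start. The windows of Tigit, Btla, Pdcd1 and Havcr2 had none. Of all 32851 promoter windows in the table, 16.9% held at least 1 match on either strand, so 2 of 7 windows is a description only. G and C made up 60.4% of the Pdcd1 stretch, 47.6% of the Cd160 stretch, 47.2% of the Btla stretch and 40% of the Tigit stretch.

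In KO cells 5 receptors had higher transcript levels than in WT cells, 1 had a lower level, 1 did not pass the test and 1 was nearly silent. Counts were scaled by library size (CPM) and tested with edgeR's quasi-likelihood test with sex as a term, with Benjamini-Hochberg adjustment over all 13294 genes that passed a filter on low counts. Of the 8 members 7 passed that filter, and Tigit passed it only through its KO counts, so that it had to differ. Pdcd1, Cd160, Btla, Tigit and Icos were called higher, against 14.1% of all genes tested, and Ctla4 was called lower, against 16.5%. In the same 5 genes both KO libraries lay above the range of the 4 WT libraries, as in 22.9% of genes tested, and for Ctla4 both lay below it, as in 28.6% (51.5% for either direction). A called rise of at least 8-fold was fitted for Cd160, Btla and Tigit, 3 of the members, and for 2.5% of all genes tested. The median log2 change of the 7 receptors was 2.56, beside -0.04 over all genes tested. In bulk RNA a change in the share of cells that carry a transcript and a change in the amount per cell cannot be told apart.

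**Figure D1:**
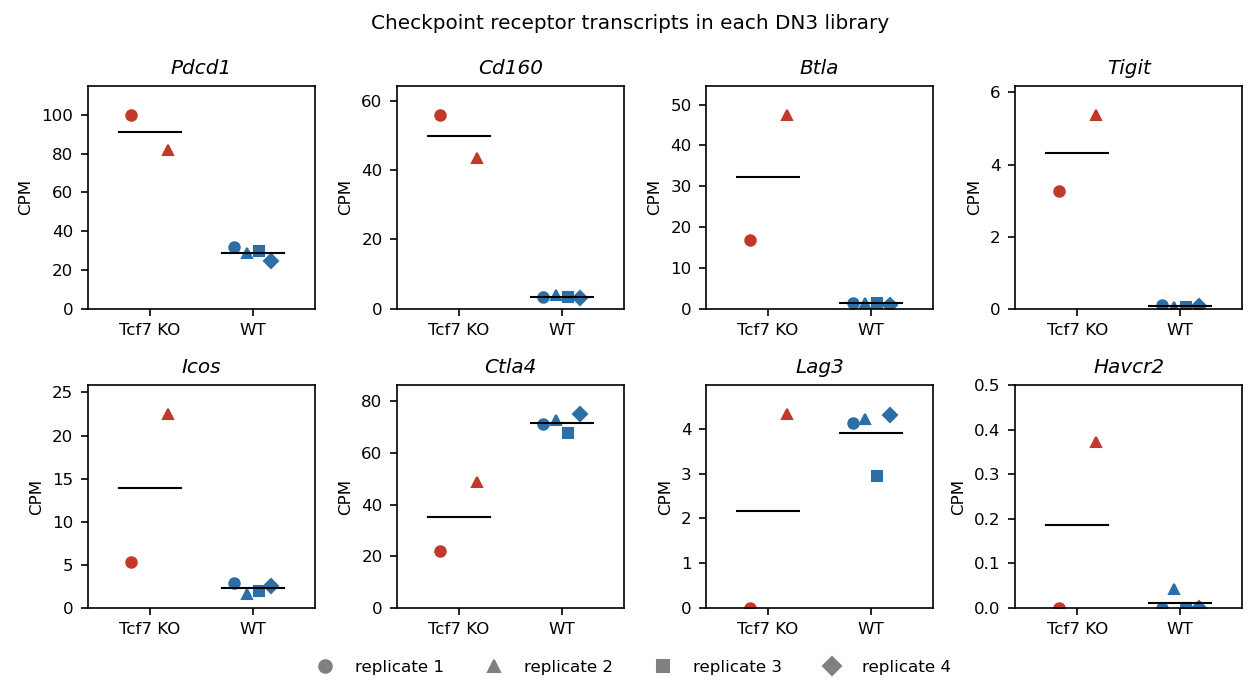
Each panel plots 1 receptor in CPM on a linear axis from 0, with a point per library (KO left, WT right, marker shape by replicate number) and a line at the mean of each group. For Pdcd1, Cd160, Btla, Tigit and Icos both KO points lie above all 4 WT points, for Ctla4 both lie below, and for Lag3 KO 1 is at 0 while KO 2 is at 4.33 CPM.

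Among the receptors that mainly restrain T cells, Pdcd1 had the highest level in KO cells. PD-1 carries tyrosine motifs in its tail that recruit the phosphatase SHP-2. Pdcd1 (Entrez 18566) spans 94038305 to 94052553 of chromosome 1. It had 99.9 and 82.0 CPM in KO 1 and KO 2, against 31.8, 28.5, 29.6 and 24.7 CPM in WT 1 to 4. The KO libraries were 1.22-fold apart, and the lower of them was well above the highest WT library. The fitted rise was 3.21-fold (log2 1.68, SE 0.14, adjusted p = 0.00151 by edgeR).

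Cd160, which encodes a membrane receptor for HVEM found on NK and some CD8 T cells, rose more. Cd160 (Entrez 54215, chromosome 3, 96798763 to 96829351) had 55.8 and 43.5 CPM in KO 1 and KO 2, against 3.28, 3.84, 3.30 and 3.02 CPM in WT 1 to 4. The groups did not overlap, and the rise was 14.6-fold (log2 3.87, SE 0.17, adjusted p = 0.000282 by edgeR). The library kit does not mark strand, and 68 of the 2642 annotated exonic bases of Cd160 are shared with Pdzk1 on the other strand. Pdzk1 stood at 14.6 and 15.2 CPM in KO 1 and KO 2 and at 16.7 CPM on average in WT, and did not pass the test (adjusted p = 0.342).

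Btla, the other receptor for HVEM in the set, is known from B cells and from resting and activated T cells. Btla (Entrez 208154) spans 45223705 to 45252895 of chromosome 16. It had 16.9 and 47.5 CPM in KO 1 and KO 2, against 1.30, 1.38, 1.50 and 1.02 CPM in WT 1 to 4. KO 1 was at 13.0 times and KO 2 at 36.5 times the WT mean, so the size of the rise differed between the KO mice while both lay above WT. The fitted rise was 26.5-fold (log2 4.73, SE 0.25, adjusted p = 0.000428 by edgeR).

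Tigit had the largest fitted rise of the set but stayed low. TIGIT competes with the costimulatory receptor CD226 for the ligand CD155. Tigit (Entrez 100043314, chromosome 16, 43626137 to 43665125) had 64 and 72 counts in KO 1 and KO 2, which is 3.28 and 5.37 CPM, against 4, 1, 1 and 2 counts in WT 1 to 4. With so few WT counts, the fitted fold depends on the prior count, and the ratio of pooled counts was 61.9 with an exact 95% interval of 30.5 to 146 that covers counting error only (log2 6.03 as fitted, SE 0.47, adjusted p = 0.00106 by edgeR).

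Icos, the costimulatory member, was higher in both KO mice by unequal amounts. Icos (Entrez 54167, chromosome 1, 60960773 to 61000322) had 5.27 CPM in KO 1 and 22.5 CPM in KO 2, against 2.85, 1.67, 1.92 and 2.60 CPM in WT 1 to 4. KO 1 was 2.33 times and KO 2 was 9.94 times the WT mean (fitted log2 2.56, SE 0.54, adjusted p = 0.0216 by edgeR). The call was lost with limma-voom weighted by the spread of each genotype (adjusted p = 0.0695) and in edgeR without WT 1, 2 or 3 (adjusted p = 0.0813, 0.0754 and 0.0812).

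Ctla4 was the 1 member that fell. CTLA-4 outcompetes CD28 for the ligands CD80 and CD86. Ctla4 (Entrez 12477, chromosome 1, 60909025 to 60915832) had 22.0 and 48.6 CPM in KO 1 and KO 2, against 71.3, 72.7, 67.7 and 75.0 CPM in WT 1 to 4. The WT libraries spanned 1.11-fold, while the KO libraries were 2.21-fold apart and both below WT. The fitted fall was 2.01-fold (log2 -1.005, SE 0.28, adjusted p = 0.046 by edgeR). This call lay close to the threshold. It was kept with limma-voom weighted by genotype (log2 -1.26, adjusted p = 0.0163) and lost in edgeR with a count minimum of 30 (adjusted p = 0.0522). Leaving out WT 1, WT 2 or WT 3 also lost it, at adjusted p = 0.116, 0.111 and 0.0973 by edgeR.

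Lag3, a relative of CD4 that binds MHC class II, differed between the KO mice. Lag3 (Entrez 16768, chromosome 6, 124904359 to 124912434) had no count in KO 1 and 58 counts in KO 2, and 171, 101, 77 and 123 counts in WT 1 to 4. In CPM this is 0 and 4.33 in KO, against 4.13, 4.22, 2.95 and 4.32 in WT, so KO 2 was level with the highest WT library. In KO 1, 3 counts would correspond to 0.154 CPM, far below every WT library. Lag3 did not pass (log2 -1.15, SE 1.23, adjusted p = 0.518 by edgeR). The sign was not stable, with estimates of 0.21 without KO 1 and 0.19 without WT 4, and without KO 2 the fall was called (log2 -9.92, from a KO library with no count).

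Havcr2 was the silent member. TIM-3 marks terminally exhausted T cells and is also made by myeloid cells. Havcr2 (Entrez 171285, chromosome 11, 46454931 to 46481255) had 0 and 5 counts in KO 1 and KO 2, against 0, 1, 0 and 0 counts in WT 1 to 4, and was not tested. Taking 3 counts in any library as the limit, it was silent in WT and in KO 1, and at 0.373 CPM in KO 2. The pooled ratio of 18.2 has an exact 95% interval of 2.04 to 861 for counting error alone, and all KO counts came from 1 mouse. Tigit, with 4 counts at most in a WT library, lay just over the same limit in WT.

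**Figure D2:**
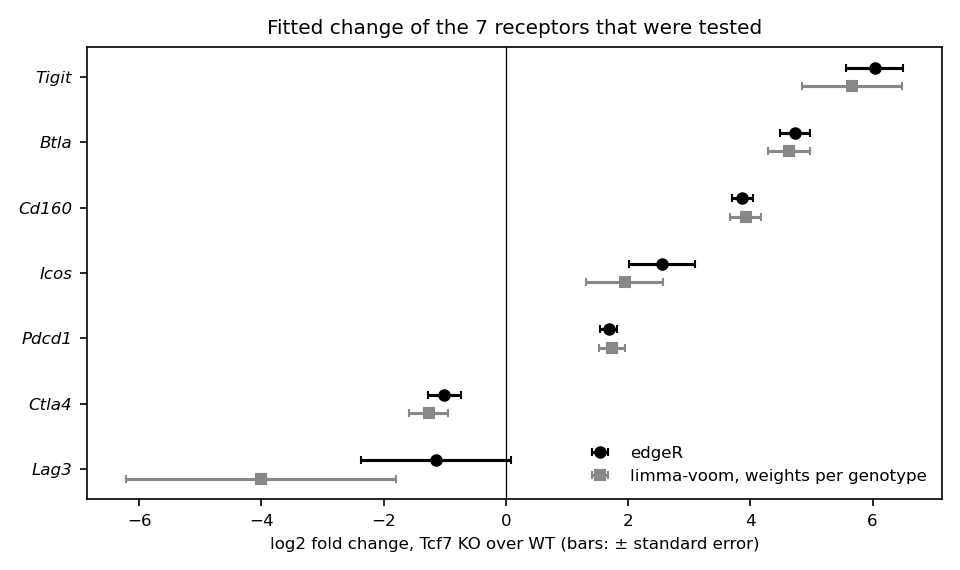
The log2 fold change of KO over WT is plotted for the 7 tested receptors, with bars of 1 standard error, from edgeR (circles) and from limma-voom with weights per genotype (squares). Tigit, Btla, Cd160, Icos and Pdcd1 lie above 0 by both methods, Ctla4 lies below, and Lag3 has the widest bars (SE 1.23 by edgeR and 2.21 by limma-voom).

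The KO libraries differed from each other more than the WT libraries did, and edgeR shares 1 estimate of the spread between the groups. On simulated data with a wider KO spread, edgeR called more unchanged genes than its threshold allows and limma-voom did so to a smaller extent, so the adjusted p-values given here may be too small. Limma-voom with weights per genotype called Pdcd1 (adjusted p = 4.14e-05), Cd160 (5.34e-08), Btla (2.37e-07) and Tigit (0.000203) higher and Ctla4 lower, where it called 7.42% of all genes tested higher and 3.86% lower. Each KO library was also set alone against the 4 WT libraries without the sex term, with the lone KO library assumed to vary like WT. KO 1 alone gave log2 changes of 1.79 for Pdcd1, 4.05 for Cd160, 3.69 for Btla, 5.53 for Tigit, 1.19 for Icos and -1.72 for Ctla4. KO 2 alone gave 1.53 for Pdcd1, 3.71 for Cd160, 5.21 for Btla, 6.26 for Tigit, 3.30 for Icos and -0.55 for Ctla4. These log2 changes are effect sizes only, because 1 KO mouse gives no spread within KO. Tigit passed the count filter only through KO, so that it had to differ in these fits and in that of limma-voom. Pdcd1 and Cd160 were close in the KO mice, whereas Icos, Btla and Ctla4 were 4.26-, 2.80- and 2.21-fold apart. Across all genes tested the KO libraries differed by at least 2-fold in 26.5% and by at least 4-fold in 13.6%.

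On the scale of RPKM (reads scaled by gene length and library size), which allows levels of different genes to be compared, the order of the receptors differed between the genotypes. In KO, Pdcd1 led at 51.8 and 42.5 RPKM in KO 1 and KO 2, and no other receptor reached its range. Cd160 (mean 18.8 RPKM), Ctla4 (18.3), Btla (9.95), Tigit (4.49), Icos (4.26), Lag3 (1.08) and Havcr2 (0.0685) followed, each with a range that overlapped that of the next. In WT, Ctla4 led with 37.1 RPKM ± 1.58 (SD, n = 4), followed by Pdcd1 with 14.8 ± 1.52. Lag3 (1.95), Cd160 (1.27), Icos (0.694), Btla (0.402), Tigit (0.0641) and Havcr2 (0.00383) came after them, and no 2 neighbours in this order overlapped between the 4 libraries.

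By mean RPKM, Ctla4 stood above 62.0% of the genes tested in KO and above 80.5% in WT, whereas Pdcd1 stood above 84.3% in KO and 57.8% in WT. Summed over the 8 receptors, the level was 94.6 and 114 RPKM in KO 1 and KO 2, against 54.2 to 58.1 RPKM in WT. Ctla4 made up 12.1% and 22.2% of that sum in KO 1 and KO 2, against 63.6 to 69.2% in WT. Cd160 made up 22.3% and 14.5% of it in KO, against 2.04 to 2.55% in WT. The ratio of Pdcd1 to Ctla4 was 4.54 and 1.69 in KO, against 0.330 to 0.446 in WT.

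**Figure D3:**
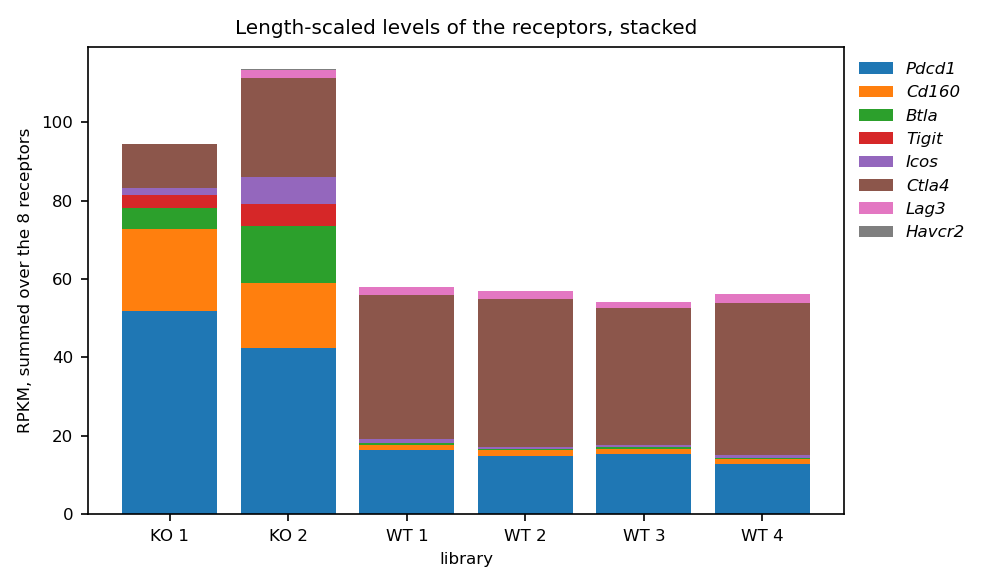
Stacked bars show the RPKM of the 8 receptors in each library, KO libraries at the left. Ctla4 is the largest block in all 4 WT bars (63.6 to 69.2% of the sum) and Pdcd1 is the largest block in both KO bars (54.8% and 37.4%).

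Some of the receptors sit in clusters of related genes, and their neighbours were read in the same fit. Cd28, Ctla4 and Icos lie in that order on chromosome 1, with 135.7 kb between Cd28 and Ctla4 and 44.9 kb between Ctla4 and Icos. Cd28, the main costimulatory receptor of T cells, stood at 92.4 and 273 CPM in KO 1 and KO 2, against 95.6, 90.1, 102 and 64.7 CPM in WT 1 to 4. It was called higher (log2 1.13, adjusted p = 0.016 by edgeR), but KO 1 lay inside the WT range. Ctla4 was thus called lower between 2 genes called higher. By RPKM, Ctla4 exceeded Icos 7.04- and 3.64-fold in KO 1 and KO 2, against 42.2- to 73.3-fold in WT.

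Lag3 lies 16.1 kb from Cd4, the coreceptor gene, and 1.2 kb from Ptms, which encodes parathymosin. Cd4 had no count in KO 1 and 12.8 CPM in KO 2, against 0.738 to 2.61 CPM in WT. Ptms had 4.86 and 72.5 CPM in KO 1 and KO 2, against 29.8 CPM on average in WT. Neither passed (adjusted p = 0.415 and 0.919), and both were lower in KO 1 and higher in KO 2 than in every WT library. Lag3 was likewise below every WT library in KO 1 but level with WT in KO 2. Btla lies 129.2 kb from Cd200, which encodes a ligand of an inhibitory receptor. Cd200 fell to 2.05 and 2.46 CPM in KO 1 and KO 2, against 8.71 CPM on average in WT (log2 -1.94, adjusted p = 0.00233 by edgeR). Over all 8 members, the 28 other genes within 2 places on either side included 2 called higher and 3 called lower, 10 did not pass and 13 had too few counts, so that 5 of 15 tested were called, beside 30.7% of all genes tested.

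**Figure D4:**
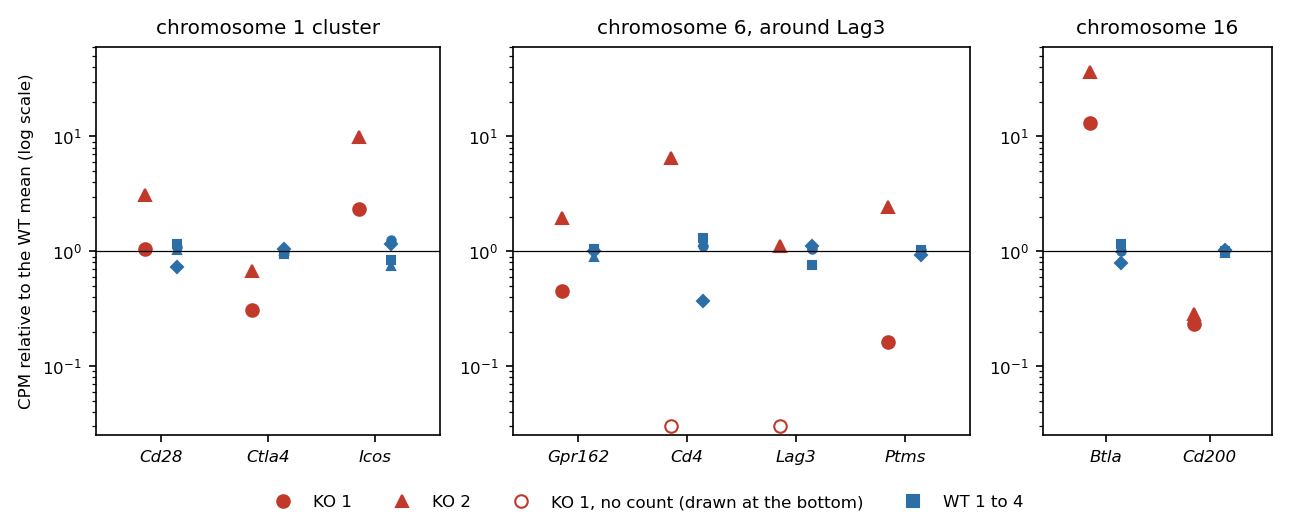
CPM relative to the WT mean is shown on a log axis for neighbouring genes in chromosomal order, with KO libraries as red symbols to the left and the 4 WT libraries as blue symbols to the right of each position. Ctla4 lies below 1 in both KO libraries between Cd28 and Icos, and Lag3 and Cd4 have no count in KO 1 (open circles at the bottom of the axis).

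Transcripts of the receptors' ligands changed in both directions. Of 15 ligand genes, 12 were tested, 4 rose and 4 fell, beside 14.1% and 16.5% of all genes tested, and the median log2 change was -0.31 beside -0.04 over all genes. Tnfrsf14, which encodes HVEM, the ligand of BTLA and CD160, fell to 9.62 and 10.2 CPM in KO 1 and KO 2, against 17.7 to 21.7 CPM in WT (log2 -0.98, adjusted p = 0.00745 by edgeR). Pvr, which encodes the TIGIT ligand CD155, rose to 15.8 and 30.7 CPM in KO, against 9.15 to 10.4 CPM in WT (log2 1.30, adjusted p = 0.011 by edgeR). Thus a ligand of receptors that rose fell, and another rose with its receptor. Nectin2 and Nectin3, a further pair of genes for ligands or relatives of ligands of TIGIT, had no count in KO. Against 3 counts over the KO group they were at least 6.41-fold and at least 7.42-fold lower, and they passed the count filter only through WT, so that they had to differ.

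Of the PD-1 ligands, Cd274 did not pass, with 9.21 and 8.81 CPM in KO 1 and KO 2 and 10.7 to 11.7 CPM in WT. Pdcd1lg2 was low and rose, to 1.43 and 3.28 CPM in KO, against 0.246 to 0.794 CPM in WT (adjusted p = 0.00753 by edgeR). Cd80 and Cd86, the ligands of CTLA-4 and CD28, were at most 0.224 CPM in any library and were not tested. Icosl did not pass, with 0.972 and 9.25 CPM in KO and 4.06 to 9.03 CPM in WT. Of the galectins reported to bind TIM-3 or LAG-3, Lgals9 was at 628 and 526 CPM in KO and 423 to 464 CPM in WT (adjusted p = 0.017 by edgeR). Lgals3 was at 10.7 and 47.8 CPM in KO and at most 0.141 CPM in WT, so that it passed the count filter only through KO and had to differ. Hmgb1, a chromatin protein that TIM-3 can bind outside cells, fell to 95.1 and 165 CPM in KO, against 201 to 219 CPM in WT (adjusted p = 0.037 by edgeR). Ceacam1 and Fgl2 did not pass, and Fgl1 had no count in any library.

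Among 24 other costimulatory and inhibitory genes, not all of them for receptors, 16 were tested. Of these 5 rose and 2 fell, beside 14.1% and 16.5% of all genes tested (median log2 change 0.35). The rises were Cd28, Cd27, Cd5, Nt5e and Pecam1, with Nt5e passing the count filter only through KO, so that it had to differ, and the falls were Cd200 and Lair1, an inhibitory collagen receptor. Lair1 stood at 6.09 and 7.46 CPM in KO 1 and KO 2, against 21.1 to 24.9 CPM in WT (log2 -1.76, adjusted p = 0.00218 by edgeR). Vsir, which encodes the inhibitory receptor VISTA, did not pass, with 22.2 and 98.6 CPM in KO and 26.3 to 31.2 CPM in WT. Cd226, the costimulatory rival of TIGIT, had no count in KO 1 and 5.82 CPM in KO 2, against 0.457 to 0.575 CPM in WT (adjusted p = 0.266 by edgeR). Entpd1, Tnfrsf9 and Tnfrsf18 did not pass.

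Enzymes and adaptors that act on the receptors' tails were all measured: of 26, 12 rose, 3 fell and 11 did not pass, where 14.1% of all genes tested rose and 16.5% fell (median log2 change 0.29). Ptpn6, which encodes the phosphatase SHP-1, rose to 408 and 299 CPM in KO 1 and KO 2, against 184 to 195 CPM in WT (log2 0.84, adjusted p = 0.00603 by edgeR). Ptpn11, which encodes SHP-2, did not pass, with 199 and 193 CPM in KO and 172 to 183 CPM in WT. Inpp5d, a lipid phosphatase, and Sh2d1a, the SLAM adaptor SAP, rose (log2 1.02 and 1.35). The kinase Fyn and the diacylglycerol kinases Dgka and Dgkz rose as well (log2 1.31, 1.46 and 0.58). Cblb, a ubiquitin ligase that restrains T-cell activation, fell to 128 and 97.6 CPM in KO, against 229 to 266 CPM in WT (log2 -1.19, adjusted p = 0.00076 by edgeR), and Pik3cd and Lck fell by less (log2 -0.77 and -0.25). Ap2m1, the adaptor that takes CTLA-4 off the cell surface, did not pass (adjusted p = 0.0743).

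Of 22 transcription factors known to control such receptors in activated or exhausted T cells, 21 were tested, 11 rose and 2 fell, against 14.1% and 16.5% over all genes tested (median log2 change 0.81). Those that rose by the smallest adjusted p were Id3, Maf, Irf4, Ikzf2, Batf and Tox. Tox, which drives the exhaustion programme in chronic infection, stood at 173 and 217 CPM in KO 1 and KO 2, against 95.3 to 99.0 CPM in WT (log2 1.03, adjusted p = 0.00169 by edgeR). Ikzf2, which encodes Helios, stood at 329 and 378 CPM in KO, against 92.6 to 112 CPM in WT (log2 1.83, adjusted p = 0.000569 by edgeR). Nr4a2 and Myb fell (log2 -3.79 and -0.35), and Foxp3, Tbx21, Nfatc1 and Nfatc2 did not pass.

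The list of genes induced by T-cell receptor signals did not move in 1 direction. Of 16 genes 12 were tested, 2 rose (Nfkbia and Il10) and 4 fell (Ccl4, Tnfaip3, Ifng and Egr1), beside 14.1% and 16.5% of all genes tested, with a median log2 change of -0.33. Il10 passed the count filter only through KO, and Ccl4 and Ifng only through WT, so these 3 had to differ. Cd69, an early activation marker, had 2.20 and 6.64 CPM in KO 1 and KO 2, against 6.33 to 10.3 CPM in WT, and did not pass (adjusted p = 0.12 by edgeR). Il2 and Il21 had at most 1 count in any library. With limma-voom weighted by genotype, fewer genes of these lists were called, beside 7.42% higher and 3.86% lower over all genes tested. Higher were 2 ligand genes, 3 other costimulatory and inhibitory genes, 10 enzymes and adaptors, 9 transcription factors and 2 activation genes. Lower were 1 ligand gene, 0 other costimulatory and inhibitory genes, 3 enzymes and adaptors, 0 transcription factors and 1 activation gene. The falls of Cd200, Lair1, Nr4a2 and Myb were thus not called by limma-voom. Without WT 1, WT 2 or WT 3, edgeR called 1 ligand gene and 0 transcription factors lower and 2 other costimulatory and inhibitory genes higher.

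The labelled cell type was checked on its markers, and lists for other cells were read beside the receptors. All 12 DN3 genes, Ptcra, Rag1, Il2ra and Notch1 among them, were above 3 counts in every library, with summed levels of 9147 and 9144 CPM in KO 1 and KO 2 and 10784 to 11565 CPM in WT. Of these 12 genes 5 were called lower in KO and 2 higher, beside 16.5% and 14.1% of all genes tested. Il2ra, which encodes the sort marker CD25, stood at 1131 and 708 CPM in KO, against 1751 to 2119 CPM in WT (log2 -1.17, adjusted p = 0.0025 by edgeR). Ptcra, Notch3, Cd3g and Hes1 fell as well, and Gata3 and Dtx1 rose. Genes of double-positive and mature αβ T cells summed to 1211 and 2954 CPM in KO, against 722 to 846 CPM in WT. Of these 10 genes 8 and 10 were above 3 counts in KO 1 and KO 2, and 9 in every WT library. Of 9 of them tested 7 were called higher, beside 14.1% of all genes tested. Among the 7 was Cd8a, at 66.9 and 858 CPM in KO and 0.703 to 3.72 CPM in WT, although the sort left out cells with surface CD8. Genes of γδ T cells summed to 2588 and 2361 CPM in KO and 2119 to 2215 CPM in WT, but single genes moved both ways. Of 8 tested 3 were called higher and 1 lower, beside 14.1% and 16.5% of all genes tested. Cd163l1 rose to 630 and 570 CPM in KO, against 35.4 to 49.9 CPM in WT. Trgc1 fell to 227 and 201 CPM in KO, against 409 to 424 CPM in WT. The list of NK and innate lymphoid genes summed to 1338 and 1464 CPM in KO, against 190 to 250 CPM in WT, nearly all of it Gzma. Of its 14 genes 4 and 8 were above 3 counts in KO 1 and KO 2, against 5 to 11 in WT. Ncr1 had no count in either KO library, with at most 5 counts in WT. Against 14.1% of all genes tested that were called higher and 16.5% lower, 4 of the 7 listed genes tested were called higher and 0 lower. Besides Gzma these were Gzmb (2.20 and 26.0 CPM in KO, at most 0.41 CPM in WT), Prf1 (2.15 and 10.5 CPM in KO, 0.211 to 0.460 CPM in WT) and Cxcr6 (0.154 and 14.3 CPM in KO, 0.176 to 0.669 CPM in WT). The list of regulatory and follicular helper T cells summed to 393 and 465 CPM in KO, against 149 to 179 CPM in WT, most of it Ikzf2. Its defining gene Foxp3 was at 0 and 0.672 CPM in KO, against 0.209 to 0.410 CPM in WT. Myeloid genes summed to 9.57 and 14.7 CPM in KO, against 20.0 to 24.3 CPM in WT, with Cd14 and Siglech at 0 in every library. The lower sum was that of Lyz2, at 0.154 and 1.19 CPM in KO and 16.8 to 18.4 CPM in WT, and without it the list summed to 9.42 and 13.5 CPM in KO, against 3.28 to 5.83 CPM in WT. Itgam was called higher (log2 3.33, adjusted p = 0.0012 by edgeR), as was Mpeg1, which passed the count filter only through KO. The part of these cells in the levels of the receptors was not tested.

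B-cell genes stood apart in KO 2. All 12 were above 3 counts there and 7 of 12 in KO 1, against 5 to 8 of 12 in WT. The sums were 24 CPM in KO 1 and 257 CPM in KO 2, against 46.0 to 53.4 CPM in WT, where most of the sum was Cd79b. Ms4a1 and Pax5 had 0 CPM in KO 1 and 36.0 and 7.54 CPM in KO 2, and no count in WT. Btla, Icos, Ctla4, Tigit, Lag3 and Havcr2 were also higher in KO 2 than in KO 1 by CPM, whereas Pdcd1 and Cd160 were lower. The part of B-cell RNA in the levels of the receptors in either KO library was not tested. In KO 1, Ebf1 and Bank1 also had no count, but Cd22 stood at 6.29 CPM and Cd79a at 3.68 CPM, against at most 0.0351 and 0.211 CPM in WT. Cd79b, the gene with the highest level of the list in WT, had 10.8 and 62.5 CPM in KO 1 and KO 2, against 42.4 to 50.8 CPM in WT. The lower sum of the list in KO 1 was that of Cd79b. Cd79a, Cd22 and Fcer2a passed the count filter only through KO, so that they had to differ.

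**Figure D5:**
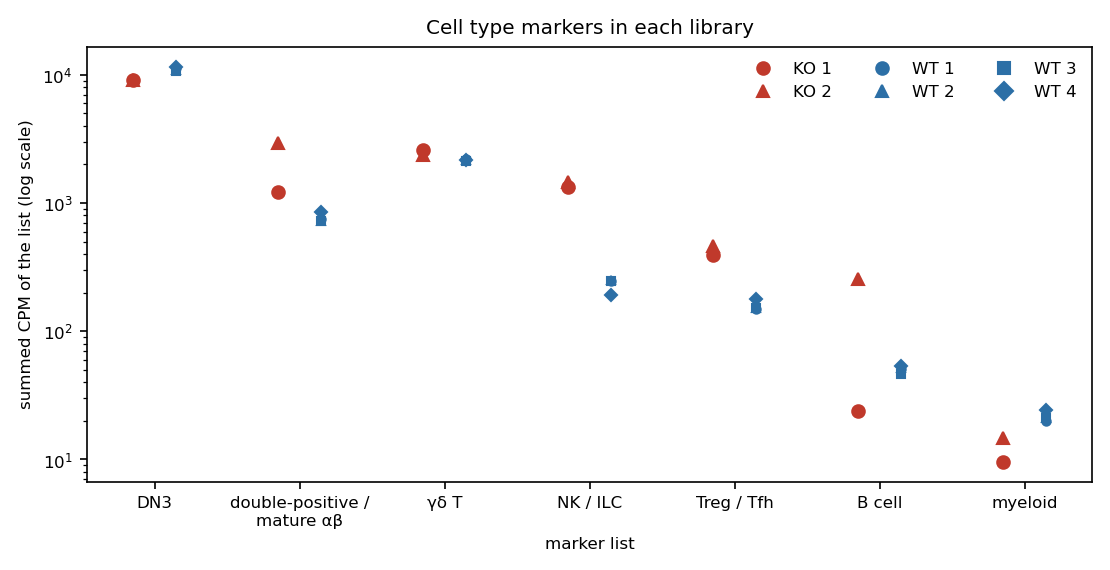
The summed CPM of each marker list is plotted on a log axis, with KO libraries in red to the left and WT libraries in blue to the right. The DN3 list is highest in all libraries (9144 to 11565 CPM), and the B-cell list reaches 257 CPM in KO 2 and 24 CPM in KO 1, against 46.0 to 53.4 CPM in WT. Most of the B-cell sum in WT is Cd79b.

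For each tested receptor the 3 genes with the most similar profile were found by the root mean square difference of log2 CPM relative to the WT mean over the 6 libraries. Pdcd1 was nearest to Bmp7 (0.075), Gdf11 (0.0897) and Gpsm2 (0.0909), and Cd160 to Lta (0.067), Il9r (0.0917) and Sema4f (0.142). Ctla4 was nearest to Eif4e3 (0.03), Smim10l1 (0.0462) and Rnf13 (0.0559). Eif4e3 stood at 15.5 and 34.0 CPM in KO 1 and KO 2 and at 51.3 CPM on average in WT. Btla was nearest to Acoxl (0.197), Traj3 (0.227) and Cd7 (0.237), Tigit to Thsd7b (0.149), Bambi-ps1 (0.26) and Rims1 (0.274), and Icos to H2-Q1 (0.253), Xaf1 (0.257) and Pdzd2 (0.273). Lag3 was nearest to Slc9a7 (0.109), Ncf1 (0.196) and Tmsb15l (0.207), which were at 0 to 0.0512 CPM in KO 1 as well. Among the receptors themselves the closest pair was Btla and Tigit (0.507), followed by Btla and Cd160 (0.627).

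Depth and the targeted gene bear on all of these values. Total counts were 19589938 and 13673860 in KO 1 and KO 2, against 23711513 to 41666797 in WT, so that 3 counts correspond to 0.154 and 0.224 CPM in KO and to 0.0724 to 0.125 CPM in WT. Tcf7 transcripts stood at 1133 and 1022 CPM in KO, against 2094 to 2326 CPM in WT (adjusted p = 0.00127 by edgeR), so they were lower but present in the KO libraries.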

How the data were processed

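RNA of sorted DN3 thymocytes was amplified with a SMART-Seq v4 kit and read as paired ends, per the labels' protocols. The authors deposited raw counts of reads for each Entrez gene, and featureCounts and mm10 are named per the submitters' processing notes. No source used here names the aligner or says whether counting used strand. The 6 single-library tables equal the series table. Symbols came from a RefSeq table of GRCm38.p6, which matched 25275 of 26332 identifiers. From the deposited counts, edgeR 4.0.16 (R 4.3.3) kept genes with filterByExpr (count minimum of 10), scaled libraries with TMM and fitted genotype and sex with a robust quasi-likelihood F-test. The SE is the size of the log2 change divided by the square root of F. CPM and RPKM use TMM-scaled library sizes and the deposited gene lengths. A call is an adjusted p under 0.05. Limma 3.58.1 and DESeq2 1.42.0 gave alternatives. On simulated counts both tests recovered most 4-fold changes, but with a wider KO spread both made more false calls than the threshold allows, edgeR more than limma-voom.

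The members and the 12 other gene lists were chosen with earlier results of these data known. List genes were named by adjusted p, up to 6 in each direction with at least 1 CPM, together with all ligands and genes whose products bind a member. Likeness was read over the 3 nearest genes, with predicted genes left out, and neighbours over 2 genes on each side. A gene named outside this rule was chosen after its values were seen. All 194 list entries matched a gene. Each library is 1 mouse. Exact intervals and floors cover counting error alone, because reads were amplified and carry no molecular identifiers.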

Additional observations from a re-analysis of the deposited data

Results flagged for a closer look

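Lag3 was flagged on both counts. WT 3, at 2.95 CPM, lay apart from the other WT libraries (4.13, 4.22 and 4.32 CPM) by Dixon's test for 4 values, a distance that chance gives in about 1 group in 20. The difference between KO and WT also had opposite signs in the sexes. The male KO library was lower than the male WT library by a difference of -4.32 CPM. The female KO library was higher than the mean of the female WT libraries by 0.562 CPM. That female difference rested on WT 3, since KO 2, at 4.33 CPM, was nearly level with WT 1 and WT 2 (4.13 and 4.22 CPM). The difference between the sexes was not tested, and with 1 KO mouse of each sex, sex and mouse cannot be told apart.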

How the results depend on the processing

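Pdcd1, Cd160 and Btla stayed higher and past the threshold in all 15 alternatives, and Tigit in 14. Some of these settings rest on 1 KO mouse, namely those without KO 1 or KO 2, with or without the sex term. Without WT 4 the same holds, because KO 1 is then the only male and the sex term fits it exactly. In these settings the spread comes from WT libraries alone. Leaving out 1 library gave log2 changes of 1.45 to 2.00 for Pdcd1, 3.66 to 4.19 for Cd160, 4.04 to 5.12 for Btla, 5.44 to 6.29 for Tigit, 1.01 to 3.35 for Icos, -1.78 to -0.52 for Ctla4 and -9.92 to 0.21 for Lag3. Ctla4 and Icos kept their direction in all 15 and their call in 10 each, the settings that rest on 1 KO mouse among them. Ctla4 was -0.98 with a count minimum of 30, and Icos was 1.94 with limma-voom. Lag3 turned to 0.19 without WT 4, 0.21 without KO 1 and 0.16 without KO 1 and sex, and passed at -9.92 without KO 2 and -9.77 without KO 2 and sex, where the only KO library had no count. No filter and DESeq2 size factors changed no call of a receptor.

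Of the receptors, 4 to 5 were called higher and 0 to 2 lower when 1 library was left out, 0 lower with a count minimum of 30, and 2 lower without KO 2 and sex. Over all genes 1878 were called higher and 2198 lower. Leaving out 1 library gave 881 to 4321 higher and 784 to 5152 lower, limma-voom 987 and 513, KO 2 alone without sex 3514 and 3664, and KO 1 alone without sex 4020 and 4898. The 5 related lists held 34 genes called higher and 15 lower. These were 21 to 53 and 6 to 31 when 1 library was left out, with 5 lower by limma-voom and 32 lower for KO 1 alone without sex. The settings without KO 1 or KO 2 and sex were chosen after seeing the data.

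Libraries with the same replicate number came from different mice, and KO 1 minus KO 2 did not follow WT 1 minus WT 2 over genes (r = -0.049). With the replicate number as a block in place of sex, 1 residual degree of freedom remained, and 413 genes were called higher and 335 lower. Under this block 3 receptors were called higher and 0 lower, with log2 changes of 5.77 for Tigit, 2.30 for Icos and -1.14 for Ctla4 that no longer passed, and 15 list genes were called higher and 4 lower.

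KO libraries were the shallowest, so low genes such as Havcr2, Tigit in WT and Lag3 in KO 1 are limited by counting, and with 2 KO mice the spread of KO rests on 1 difference.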

Other observations

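Several related genes, chosen after their values were seen, differed widely between the KO libraries, and some were counted in 1 of them only. Klrg1, an inhibitory receptor of effector cells, had 20 counts in KO 1 (1.02 CPM) and none in KO 2 or in WT, at least 24.3-fold higher by pooled counts. Cxcr5, the homing receptor of follicular T cells and B cells, had no count in KO 1 and 18.1 CPM in KO 2, against 0.537 to 1.16 CPM in WT. Fgl2 had none in KO 1 and 10.9 CPM in KO 2, against 0.307 to 0.580 CPM in WT. Arrb2, a scaffold protein, ran the other way, with 269 CPM in KO 1 and 83.4 CPM in KO 2, against 49.3 to 52.1 CPM in WT. Tox2, a relative of Tox, had 73.9 CPM in KO 1 and 20.5 CPM in KO 2, against 3.28 to 5.18 CPM in WT.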
